A study of Homo sapiens with 6 samples.

Results

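The genes described are those of the mitochondrial ribosomal proteins (MRP genes), taken as every gene whose symbol in the platform annotation starts with MRPL or MRPS followed by a number. They were 44 of the 8987 genes named by a single-gene probe on an array of 14080 probes. One of the 44, MRPL20-AS1, is annotated as an antisense RNA and is given apart, which left 43 protein-coding genes with 58 probes. By symbol 27 belong to the large and 16 to the small subunit, and 42 of the 43 were measured at every harvest and fitted, among 8748 genes in all. MRPL2, a large-subunit protein, had no measurement at 30 min and was not fitted. A further 7 probes that carry several gene symbols, an MRP gene among them, were not used.

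The mitochondrial ribosome makes the few proteins encoded in mitochondrial DNA, all of them subunits of the oxidative phosphorylation complexes. Its ribosomal RNAs come from mitochondrial DNA, whereas every protein of both subunits is encoded in the nucleus, translated in the cytosol and imported. Some of these proteins descend from bacterial ribosomal proteins and others have no bacterial counterpart.

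The RNA came from GM00156, a cell line of the Coriell repository whose cell type the labels do not state, in a treated and an untreated culture. Treated cells received emetine, an inhibitor of translation elongation in the cytosol, at 100 µg/ml, and the cultures stood for 10 h. Both then got the transcription blocker actinomycin D at 5 µg/ml. Harvests followed after 0 min, 10 min, 30 min, 1 h and 8 h. Each harvest is 1 array, on which treated and untreated mRNA of that harvest were hybridised together. The sixth array hybridised treated RNA of 0 min against itself (self-self), and no actinomycin D is named for it. No harvest was repeated, nothing is said of separate cultures, and the cells are 1 line, so every test below rests on the spread of 5 arrays around a line over time.

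The values are log2 ratios of the 2 channels. The labels give Cy3 for treated and Cy5 for untreated mRNA and do not state which is the numerator, so a value is given only as lying on the positive or the negative side. The harvests share 1 orientation as far as the data show, since the ratios of all genes correlated at r = 0.69 to 0.91 between harvests. In RNA from whole cultures, fewer cells of a type and less RNA per cell cannot be told apart. The channel names of the 0 min array give treated and untreated cells, while its description speaks of treated against treated. Its values correlated with those at 10 min at r = 0.90 over all genes and at r = 0.94 over 41 MRP genes, against 0.22 and 0.36 with self-self. The spread of all genes (robust SD) was 0.42 to 0.88 at the harvests and 0.11 on the self-self array. The 1 h array was short on the positive side, its highest gene standing at 1.90 where those of the other harvests stood at 5.94 to 7.14. Its lowest gene, at -7.56, was the lowest of any harvest, and its robust SD was 0.50, against 0.42 at 0 min.

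Most MRP genes lay on the negative side for the first hour. Their median log2 ratio started at -0.29 (0 min), reached -0.73 at 10 min, then stood at -0.38 (30 min), -0.25 (1 h) and 0.09 (8 h). On the self-self array it was -0.05. All genes had medians of 0.06, 0.11, 0.16, 0.07 and 0.18 at the harvests, and 0.01 on self-self. Relative to the median of all genes on the same array the MRP median was -0.36, -0.85, -0.54, -0.32 and -0.089 in time order, so its positive sign at 8 h turned when the array was centred, and 25 of 42 members lay below the array's median there. Of the 42 MRP genes 33, 35, 30 and 29 were negative on the first 4 harvests in time order, but 18 on the 8 h array. Of all 8748 genes 3830, 3938, 3692, 3952 and 3583 were negative at the 5 harvests. The members' share at 8 h was thus near that of all genes. On self-self 28 of the 41 measured members were negative too, beside 4144 of 8725 genes, with members' values between -0.24 and 0.19.

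**Figure D1:**
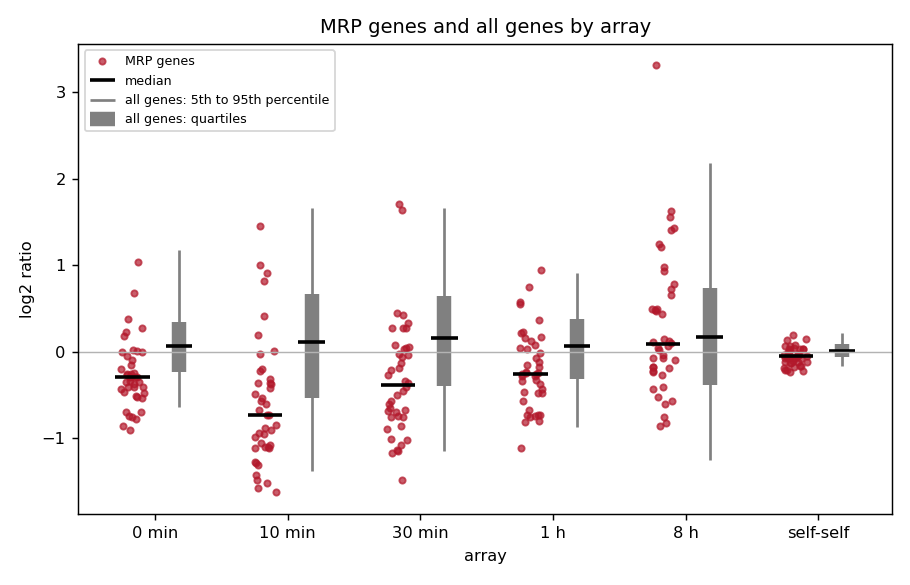
Log2 ratio of each of the 42 MRP genes (points) and of all genes (grey bars for quartiles, thin lines for the 5th to 95th percentile, black lines for medians) on the 5 harvests and the self-self array. The MRP median lies below that of all genes at every harvest, by the most at 10 min (-0.73 against 0.11) and by the least at 8 h (0.09 against 0.18). The spread of all genes was also widest at 10 min (robust SD 0.88).

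The self-self array gives the range that labelling and hybridisation alone left. The central 99% of its gene values ran from -0.28 to 0.43. At 0 min 23 of 41 MRP genes were below this range and 2 above it, where 21.4% of all genes were below and 20.3% above. At 10 min 31 were below and 4 above, beside 33.7% and 35.9% of all genes. At 30 min the counts were 22 and 4, beside 29.8% and 35.9%, and at 1 h 17 and 4, beside 26.7% and 21.6%. The 8 h array was the only harvest with more MRP genes above than below, 17 against 8, beside 36.6% of all genes above and 28.9% below. These are counts on single arrays and carry no test.

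The test of the mean over the 5 harvests asked which genes lay on 1 side of 0 beyond their spread around a line over time. At an adjusted p of 0.05 (limma, two-sided, Benjamini-Hochberg over all 8748 genes), 19 MRP genes passed on the negative side, 6 on the positive side and 17 on neither. Of all genes 25.3% passed on the negative and 37.0% on the positive side. The median of the means was -0.30 for the MRP genes and 0.14 for all genes. The ratio was negative at all 5 harvests for 14 MRP genes, positive at all 5 for 5 and mixed for 23, where all genes had 2226, 3308 and 3214. With each array centred on its own median, which shifted the median of all genes to 0.04, the MRP genes split into 25 negative and 4 positive calls, and with arrays scaled to equal spread into 26 and 5. Over all 8748 genes the negative and positive calls moved from 2217 and 3240 to 2612 and 2646 with centring, and to 2852 and 2955 with scaling.

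**Figure D2:**
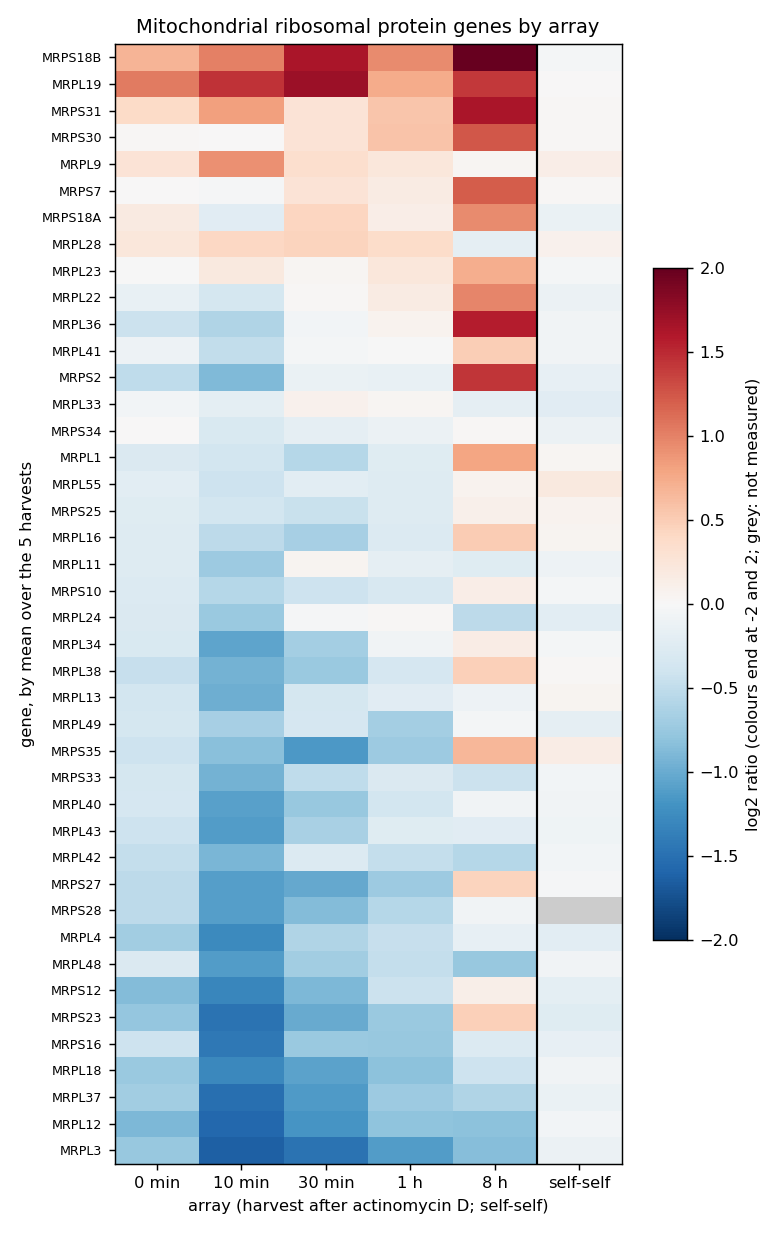
Log2 ratio of each of the 42 MRP genes (rows, from the highest to the lowest mean over the 5 harvests) on each array (columns). Colours end at -2 and 2, so MRPS18B at 8 h (3.31) is off the scale, and grey marks MRPS28, not measured on the self-self array. Most rows are bluest at 10 min and reddest at 8 h.

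The lowest mean of the MRP genes was that of MRPL3, whose bacterial counterpart L3 lies near the peptidyl transferase centre. Its log2 ratio read -0.75, -1.63, -1.48, -1.11 and -0.85 from 0 min through 8 h, and -0.12 on self-self. All 5 harvests thus lay outside the self-self range, with a mean of -1.17 (SE 0.16, limma adjusted p = 0.00065). MRPL3 was spotted with 9 probes, of which 8 had means from -1.26 to -1.16 and 1 had -0.70.

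MRPL12, the counterpart of the bacterial stalk protein L7/L12 that recruits translation factors, came next among the large-subunit genes. Its fitted probe read -0.91, -1.58, -1.18, -0.80 and -0.83 in time order, and -0.052 on the self-self array, for a mean of -1.06 (SE 0.14, limma adjusted p = 0.000613). A second MRPL12 probe, left out of the fit because 30 min was missing, read -0.15, 0.0085, -0.20 and 0.07 at 0 min, 10 min, 1 h and 8 h. The 2 probes therefore lay apart at every harvest that both measured, and the call rests on 1 of them. Both probes entered when the 30 min array was left out or repeated values were kept, and the mean was then -0.55 or -0.45, still past the threshold (limma adjusted p = 0.0171 and 0.0193).

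MRPL37, a large-subunit protein with no bacterial counterpart, read -0.69, -1.51, -1.14, -0.73 and -0.60 in time order, with a mean of -0.93 (SE 0.15, limma adjusted p = 0.00132). MRPL18, whose bacterial counterpart L18 binds 5S ribosomal RNA, averaged -0.87 (SE 0.13, limma adjusted p = 0.00101). MRPL48, a further large-subunit protein, averaged -0.66, and its 8 h value, -0.75, was close to that at 30 min (-0.69). None of these 3 reached 0 at any harvest.

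In the small subunit the lowest means were those of MRPS16 at -0.72 (SE 0.16), MRPS23 at -0.71 (SE 0.16) and MRPS12 at -0.68 (SE 0.13), with limma adjusted p-values of 0.00603, 0.00635 and 0.00304. MRPS12 is the counterpart of bacterial S12, which lies at the decoding centre, MRPS16 that of bacterial S16, and MRPS23 has no bacterial counterpart. MRPS23 read -0.78, -1.48, -1.01 and -0.75 up to 1 h and 0.47 at 8 h, so its last harvest lay on the other side of 0. MRPS12 read -0.86, -1.31, -0.90 and -0.43 up to 1 h and 0.12 at 8 h, while MRPS16 was still at -0.27 at 8 h. MRPL40 and MRPL43, large-subunit proteins without bacterial counterparts, averaged -0.52 and -0.53. MRPL40 missed the threshold without the 10 min or the 30 min array (limma adjusted p = 0.0581 and 0.06). The other 9 negative calls had means between -0.64 and -0.40.

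MRPS18B stood at the other end with the highest mean of the MRP genes. It is one of the mammalian proteins related to bacterial S18 and sits in the small subunit. Its log2 ratio read 0.68, 1.01, 1.64, 0.95 and 3.31 from 0 min through 8 h, and -0.039 on self-self. The mean was 1.52 (SE 0.18, limma adjusted p = 0.000487), every harvest was above the self-self range, and the 8 h value was the highest of any MRP gene on any array.

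MRPL19, the counterpart of bacterial L19, which joins the subunits at their interface, was also positive throughout. It read 1.04, 1.45, 1.71, 0.74 and 1.41 in time order, and 0.0019 on the self-self array, with a mean of 1.27 (SE 0.16, limma adjusted p = 0.000536). Unlike MRPS18B it was highest at 30 min. MRPS18B and MRPL19 were each measured by 1 probe.

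MRPS31, a small-subunit protein with no bacterial counterpart, read 0.38, 0.82, 0.27, 0.55 and 1.63 in time order, with a mean of 0.73 (SE 0.14, limma adjusted p = 0.00336). MRPS30, which carries a small-subunit symbol but sits in the large subunit, read 0.025, 0.010, 0.28, 0.57 and 1.24, with a mean of 0.43 (SE 0.11, limma adjusted p = 0.00965). MRPS7, the counterpart of the bacterial S7 that helps to assemble the head of the small subunit, read 0.0032, -0.028, 0.28, 0.17 and 1.21, with a mean of 0.33 (SE 0.12, limma adjusted p = 0.0396). The calls of MRPS30 and MRPS7 rested on the 8 h array, since without it their limma adjusted p-values were 0.181 and 0.508. They also rested on the slope term, without which the limma adjusted p-values of their means were 0.0836 and 0.165. MRPS7 also missed the threshold without the 30 min array (limma adjusted p = 0.0996), after centring (0.117) or scaling (0.067), and with self-self subtracted (0.0599).

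MRPL9, the counterpart of bacterial L9, was the sixth positive call at a mean of 0.36 (SE 0.13, limma adjusted p = 0.0445), highest at 10 min (0.91) and at 0.042 by 8 h. It missed the threshold without the 10 min, the 30 min or the 8 h array, with limma adjusted p-values of 0.146, 0.107 and 0.0521, and with arrays centred, where the value was 0.119. MRPS18A, a second protein related to bacterial S18 but built into the large subunit, averaged 0.29, and MRPL28, the counterpart of bacterial L28, 0.26. Neither of these passed, with limma adjusted p-values of 0.0844 and 0.0856, although MRPS18A passed without the 10 min array (0.0383) and MRPL28 without the 8 h array (0.0449). The antisense RNA MRPL20-AS1 read -0.16, 0.65, 0.55, -0.12 and -0.0020 in time order and did not pass either (limma adjusted p = 0.328).

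Probes of 1 gene were not always alike. More than 1 probe was present for 8 members and 1 for 35, and the annotation ties the probes of a gene to a single transcript accession, so that they are not told apart by it. For MRPL55, a large-subunit protein without a bacterial counterpart, 1 probe averaged -0.76 (limma adjusted p = 0.00385) and the other 0.35 (limma adjusted p = 0.0501), and the mean of both, -0.20, did not pass. The first of these read 0.37 on the self-self array, the second 0.012, and with them MRPL55 had the highest self-self value of the members, 0.19, where the lowest was MRPS23 at -0.24. For MRPS25, a small-subunit protein without a bacterial counterpart, the probes averaged -0.54 (limma adjusted p = 0.0089) and 0.059 (limma adjusted p = 0.717).

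The remaining pairs were closer. MRPL11, the counterpart of the bacterial L11 at the base of the stalk, had probe means of -0.34 and -0.20, of which the first passed (limma adjusted p = 0.0474). MRPL41, a large-subunit protein without a bacterial counterpart, had -0.16 and 0.10, neither of which passed. The probes of MRPL40 had the same mean, -0.52, and those of MRPL43 had -0.58 and -0.48. After centring, the gene means of MRPL55, MRPS25 and MRPL11 passed on the negative side, with limma adjusted p-values of 0.0414, 0.0315 and 0.042.

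**Figure D3:**
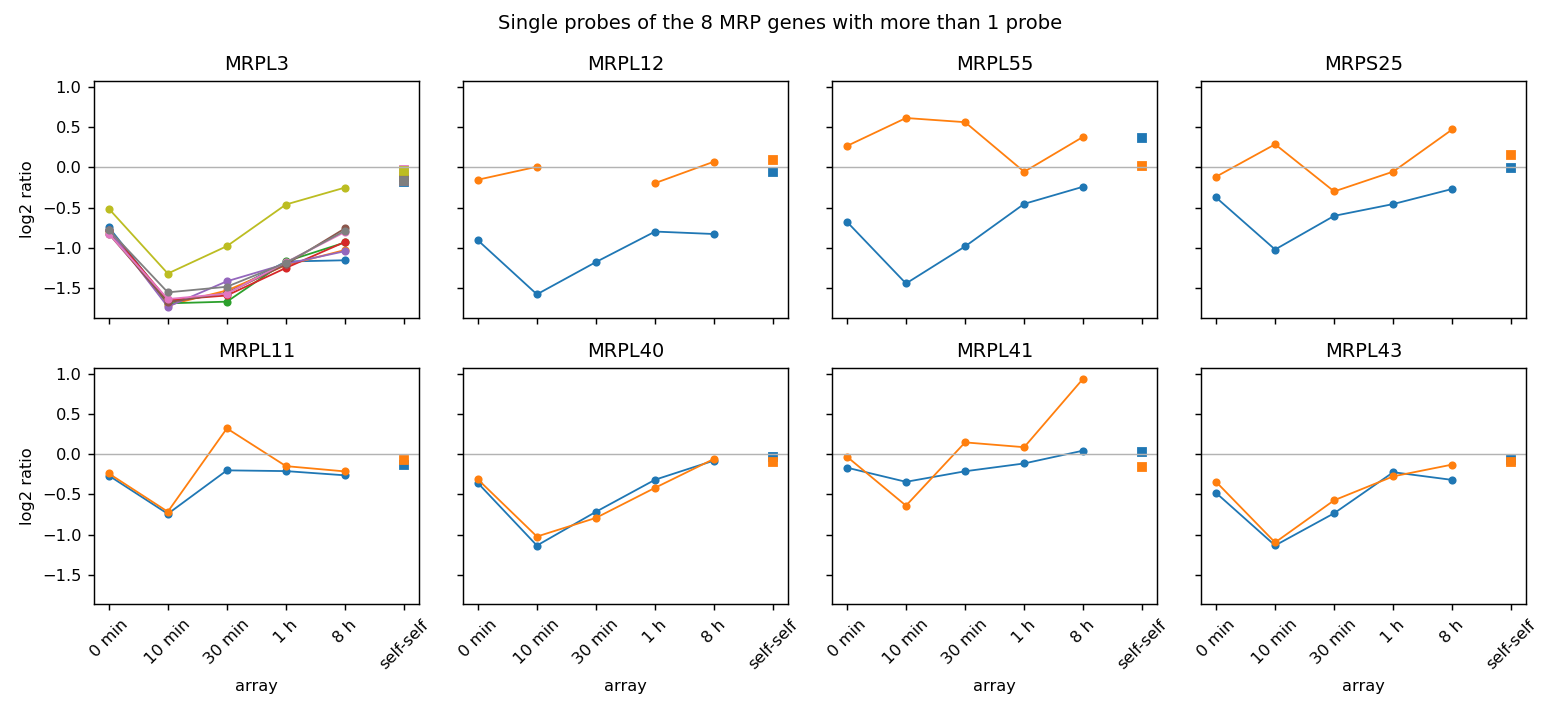
Log2 ratio of every probe (1 line each) of the 8 MRP genes with more than 1 probe, over the 5 harvests, with squares for the self-self array. Lines of 8 of the 9 MRPL3 probes and those of MRPL40 and MRPL43 run together, while those of MRPL55, MRPS25 and MRPL12 lie apart, the 2 MRPL55 probes averaging -0.76 and 0.35.

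A shared course over time was seen in most members. Of the 42 MRP genes 31 (73.8%) had their lowest harvest at 10 min, as did 27.7% of all genes, and 31 (73.8%) had their highest at 8 h, as did 33.4% of all genes. The low at 10 min was not particular to them, being held by 82.3% of nuclear oxidative phosphorylation genes and 55.1% of cytosolic ribosomal protein genes. That array also had the widest spread of all genes (robust SD 0.88, against 0.42 at 0 min), and the part of spread in these counts was not tested. The 10 min value lay below the 0 min value in 36 members (85.7%, against 49.9% of all genes). The 8 h value lay above the 10 min value in 39 members (92.9%, against 56.6% of all genes), by a median of 0.90 where all genes had 0.09. It lay above the 0 min value in 34 members (81.0%, against 55.0% of all genes). MRPL2, the gene not fitted, read -0.63, -0.98, -0.56 and 0.25 at 0 min, 10 min, 1 h and 8 h, so that it too was lowest at 10 min and highest at 8 h of the harvests measured.

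The slope on log2(1 + min/10) tested a steady drift over the harvests, and no MRP gene passed it after adjustment. A line does not describe the fall from 0 to 10 min, so that part of the course was not tested. The lowest limma adjusted p was 0.0753, and 1 of the 8748 genes (0.0114%) passed in all. At an unadjusted p under 0.05, 14 MRP genes had a positive slope and 0 a negative one, where 11.2% of all genes had a positive and 3.72% a negative slope at that level. With the harvests' rank in place of their time the count was 8, beside 6.31% of all genes. Positive slopes of any size were held by 37 of the 42 members and by 4582 of the 8748 genes. The median slope of the members was 0.10 log2 units per unit of log2(1 + min/10), against 0.01 over all genes.

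The steepest slopes were those of MRPS18B at 0.45 (SE 0.092), MRPL36 at 0.38 (SE 0.068) and MRPS2 at 0.38 (SE 0.076), with limma adjusted p-values of 0.0913, 0.0753 and 0.0875. MRPL36 is the counterpart of bacterial L36, among the smallest proteins of the large subunit, and MRPS2 that of bacterial S2 in the small subunit. MRPL36 read -0.43, -0.60, -0.055 and 0.08 up to 1 h and 1.56 at 8 h. MRPS2 read -0.51, -0.88, -0.13 and -0.15 up to 1 h and 1.43 at 8 h. Both crossed 0, so that their means, 0.11 and -0.049, were near 0 and did not pass. Without the 8 h array the mean of MRPS2 was -0.42 and passed on the negative side (limma adjusted p = 0.0499). At the other end MRPL9 and MRPL28 had slopes of -0.09 and MRPL48 of -0.025, none of which passed.

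These slopes leaned on the last harvest. Without the 8 h array 27 members had positive slopes, a count not made over all genes. The median slope was then 0.053 for the members and -0.0011 for all genes. No member reached an unadjusted p under 0.05, where 0.58% of all genes did on the positive side. Without the 1 h array MRPL36, MRPS18B and MRPS2 passed after adjustment, together with 5.94% of all genes. Without the 0 min array 22 members were positive at an unadjusted p under 0.05, as were 11.8% of all genes. With arrays scaled to equal spread MRPL36 and MRPS2 passed, together with 0.66% of all genes.

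**Figure D4:**
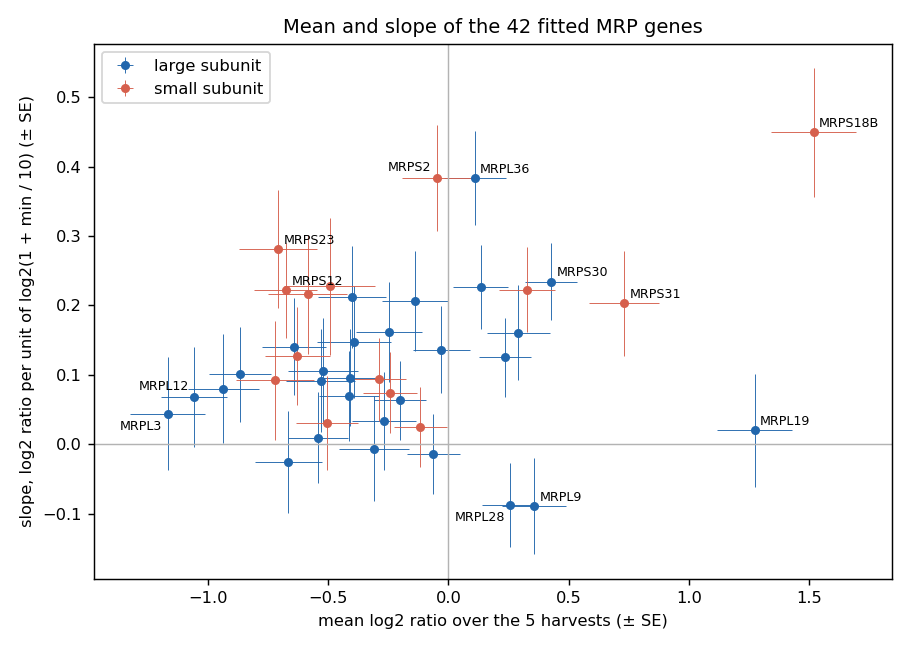
Mean log2 ratio over the 5 harvests against the slope on log2(1 + min/10) for the 42 fitted MRP genes, with standard errors, coloured by subunit (MRPS30 and MRPS18A with the large one). Points lie mostly left of 0 and above 0, with MRPS18B (1.52, slope 0.45) and MRPL19 (1.27, slope 0.020) far to the right and MRPL3 (-1.17) at the left end.

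Both subunits held calls on both sides, with MRPS30 and MRPS18A placed in the large one by their position in the ribosome. Of 14 small-subunit genes 7 were called negative and 3 positive, with a median mean of -0.39, and of 28 large-subunit genes 12 and 3, with -0.29. Centring moved these calls to 9 and 2 in the small and to 16 and 2 in the large subunit. At 8 h the small-subunit median was 0.28 and that of the large subunit -0.052, and 3 of 14 against 15 of 28 were negative, while relative to all genes of that array the medians were 0.11 and -0.23. The highest harvest was 8 h in 13 of 14 small-subunit genes and in 18 of 28 large-subunit genes, and positive slopes at an unadjusted p under 0.05 were held by 8 and 6. Among the 19 members without a bacterial counterpart, where MRPS18A and MRPS18B were counted as mammalian forms of S18, 11 were negative and 3 positive (median -0.41), and among the 23 with one 8 and 3 (median -0.27). Centring gave 13 and 3 for those without and 12 and 1 for those with a counterpart, and scaling 13 and 3 against 13 and 2. No test was made between these classes.

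The 41 members measured on all 6 arrays kept much of their order between harvests. Pearson's r between 2 harvests ran from 0.59 to 0.94 across members and from 0.69 to 0.91 across all genes, while r with the self-self array ran from 0.17 to 0.43 and from 0.16 to 0.32. The 4 correlations of 8 h with the earlier harvests, 0.59 to 0.70, were the lowest of the members' harvest pairs. These are correlations across genes of arrays made with 1 design, and genes are not independent replicates.

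Promoters are shown for the MRP genes at both ends of the mean, since members of both kinds sit in the same ribosome. Sequences are RefSeq's for build GRCh38.p14, from 250 bases before to 50 after the gene's start, and 39 of the 43 genes had one. MRPS18B lies at chr6:30617590-30617889 on the plus strand, MRPL19 at chr2:75646533-75646832 on the plus strand, MRPL3 at chr3:131502922-131503221 on the minus strand and MRPL12 at chr17:81703117-81703416 on the plus strand. MRPL19 and MRPL12 were added after their values were seen. Capitals mark matches on either strand to a 10-letter site of NRF1, CCGGAAGT (a site of ETS factors such as GABP) or ATGGCG (the core of the YY1 site), factors known to act on genes for mitochondrial proteins. No marked matches overlap.
MRPS18B: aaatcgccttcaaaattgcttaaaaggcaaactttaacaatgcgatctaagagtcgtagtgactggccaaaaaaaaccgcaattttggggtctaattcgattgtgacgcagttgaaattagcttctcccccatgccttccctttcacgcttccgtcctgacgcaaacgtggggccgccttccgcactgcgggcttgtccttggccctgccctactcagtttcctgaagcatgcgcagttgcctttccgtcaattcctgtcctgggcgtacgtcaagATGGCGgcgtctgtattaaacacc
MRPL19: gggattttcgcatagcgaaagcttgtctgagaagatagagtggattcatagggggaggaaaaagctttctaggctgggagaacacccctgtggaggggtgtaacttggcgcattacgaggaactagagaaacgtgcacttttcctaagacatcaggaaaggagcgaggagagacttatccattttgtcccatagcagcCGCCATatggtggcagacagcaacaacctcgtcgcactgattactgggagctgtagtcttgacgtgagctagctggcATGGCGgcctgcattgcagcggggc
MRPL3: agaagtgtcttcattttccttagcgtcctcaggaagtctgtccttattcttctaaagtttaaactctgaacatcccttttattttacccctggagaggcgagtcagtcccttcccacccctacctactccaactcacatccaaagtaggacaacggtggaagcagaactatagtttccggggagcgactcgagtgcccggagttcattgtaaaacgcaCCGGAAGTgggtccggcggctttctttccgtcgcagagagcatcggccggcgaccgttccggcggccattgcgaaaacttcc
MRPL12: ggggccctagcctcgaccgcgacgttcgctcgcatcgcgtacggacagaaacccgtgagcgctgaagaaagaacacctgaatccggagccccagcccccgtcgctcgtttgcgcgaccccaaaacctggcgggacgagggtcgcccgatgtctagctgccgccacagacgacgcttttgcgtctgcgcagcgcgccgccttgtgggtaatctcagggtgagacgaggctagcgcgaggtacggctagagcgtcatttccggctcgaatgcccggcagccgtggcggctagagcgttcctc

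MRPS18B and MRPL19 each held ATGGCG after the start, at bases 27 and 26, letters that also read as a start codon and an alanine codon, and MRPL19 held its reverse complement at base -52 from the start. MRPL3 held CCGGAAGT at base -32, and none of the 3 motifs was in the window of MRPL12. Over the 39 promoters ATGGCG was in 16 (41.0%), against 16.5% of the promoters of fitted genes and 11.0% of all 27305 promoters. It was not particular to them, being in 17 of 50 promoters of nuclear oxidative phosphorylation genes (34.0%). Among cytosolic ribosomal protein genes 12 of 41 promoters held it (29.3%). Any of the 3 motifs was in 48.7% of the MRP promoters, against 56.0% and 46.3% in these 2 lists. CCGGAAGT was in 4 (10.3%, against 6.9% and 4.4%) and the NRF1 site in 2 (5.1%, against 9.9% and 6.3%). The 16 members with ATGGCG had a median mean of -0.08 and a median slope of 0.21, and the 23 without it -0.41 and 0.09. A match of letters is not a bound site, and these medians were not tested.

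The cytosolic ribosomal proteins, built into the other ribosome of the cell, and the nuclear genes of oxidative phosphorylation, whose products join those made by the mitochondrial ribosome, were set beside the MRP genes. All 3 lists had low 10 min medians, -0.73 for MRP genes against -0.88 for cytosolic ribosomal proteins and -0.97 for oxidative phosphorylation. At 8 h the MRP median was 0.09, where these lists stood at -0.83 and -0.68, and relative to all genes of that array the 3 medians were -0.089, -1.01 and -0.85. The highest harvest was 8 h in 31 of 42 MRP genes, against 6 of 49 cytosolic ribosomal protein genes and 5 of 62 oxidative phosphorylation genes. Positive slopes at an unadjusted p under 0.05 were held by 14 MRP genes, 0 cytosolic ribosomal protein genes, of which 3 had negative ones, and 3 oxidative phosphorylation genes. Over the mean, 19 MRP genes were called negative and 6 positive, against 33 and 7 cytosolic ribosomal protein genes (median -0.61) and 44 and 2 oxidative phosphorylation genes (median -0.55). Self-self medians were -0.05, -0.14 and -0.18, negative in each list. The highest harvest was 8 h also in members of other mitochondrial lists, described below. It was so in 9 of 18 import genes, 6 of 9 translation factors and 9 of 14 transcription and RNA genes. Ribosomal proteins with other symbols held 3 of 4, the tRNA synthetase list 6 of 12, assembly factors 3 of 8 and regulators of biogenesis 3 of 7. Import genes had medians of -0.60 at 10 min and 0.11 at 8 h. No test between lists was made.

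**Figure D5:**
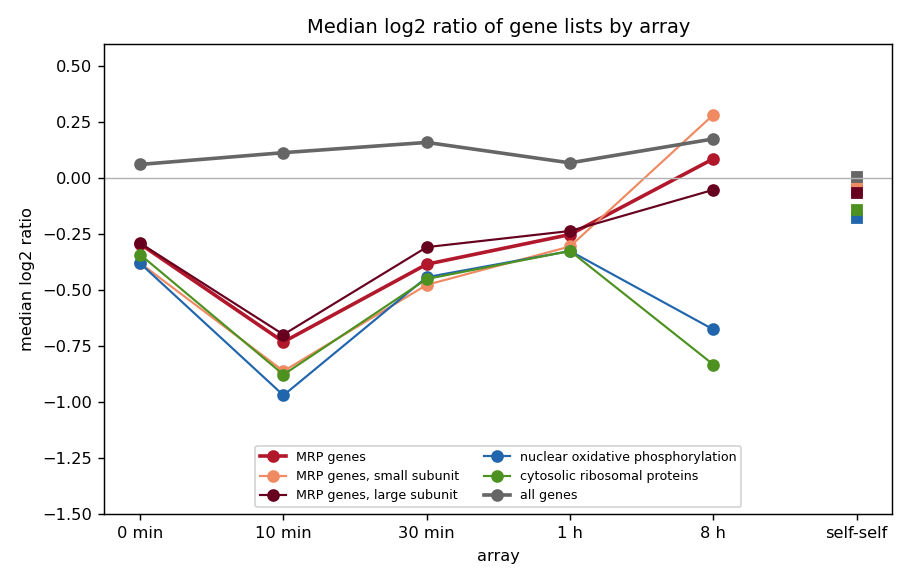
Median log2 ratio of the MRP genes, of their 2 subunits, of nuclear oxidative phosphorylation genes, of cytosolic ribosomal protein genes and of all genes on each harvest, with squares for the self-self array. The MRP median is near those of the other 2 lists up to 1 h and parts from them at 8 h (0.09 against -0.68 and -0.83). Mitochondrial import genes, not drawn, had a median of 0.11 at 8 h.

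Genes whose products work with the mitochondrial ribosome lay on both sides of 0. Of 9 mitochondrial translation factors 5 were called positive and 1 negative, with a median mean of 0.48, and 5 and 3 with arrays scaled, beside 37.0% positive and 25.3% negative calls over all genes. The ribosome recycling factor MRRF was highest at 1.12 (SE 0.14, limma adjusted p = 0.000514), and TUFM, the elongation factor that delivers tRNA, lowest at -0.83 (SE 0.13, limma adjusted p = 0.00111). Of 14 genes for mitochondrial transcription and RNA processing 8 were positive and 3 negative (median 0.36), or 6 and 5 after centring. They ran from the transcription factor TFB2M at -1.05 (SE 0.12) to TRMT10C, a subunit of mitochondrial ribonuclease P, at 0.94 (SE 0.15), both past the threshold (limma adjusted p = 0.000479 and 0.00117).

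Assembly factors and ribosomal RNA enzymes had 3 positive and 2 negative calls of 8 (median 0.17), close to the shares over all genes, with the GTPase MTG2 at 0.85 and ERAL1, which binds the small-subunit RNA, at -0.49, both past the threshold. Of 4 ribosomal proteins with other symbols PTCD3, a small-subunit protein, was positive at 0.58 (limma adjusted p = 0.0028), and DAP3, a GTP-binding small-subunit protein spotted with 9 probes, was negative at -0.38 (limma adjusted p = 0.018). The list of mitochondrial tRNA synthetases held 12 genes, among them GATB, an amidotransferase subunit and not a synthetase. It gave 3 positive and 4 negative calls, from IARS2 at -1.37 to HARS2 at 2.52, both past the threshold. Of the negative calls, GARS1 (-0.86) and KARS1 (-0.65) also encode the cytosolic enzymes. The median of the list, 0.07, turned to -0.024 after centring and -0.021 after scaling. Among 18 import genes 6 were negative and 1 positive (median -0.11), or 10 and 1 after scaling, from TIMM21 at -1.07 to TIMM9, an intermembrane space chaperone, at 0.70, both past the threshold. Of 7 regulators of mitochondrial biogenesis 5 were positive and 0 negative (median 0.41), or 4 and 2 after either centring or scaling, with MYC highest at 2.05 (SE 0.33, limma adjusted p = 0.00132) and the nuclear receptor ESRRA lowest at -0.32, which did not pass (limma adjusted p = 0.0666).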

How the data were processed

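Two-colour arrays measured mRNA of 5 harvests and 1 self-self hybridisation, 1 array each. The deposited values are log2 ratios. Per the labels, the authors subtracted background, divided sample by reference intensity, normalised within each slide by ratio statistics with housekeeping genes, and discarded ratios of low quality. Scanner files were not used here and raw signal is unknown, which leaves the count of arrays as the limit of precision. On each array 333 to 534 probes shared 1 repeated value and were treated as not measured. A single gene symbol was given for 11304 of 14080 probes, of which 11282 matched a current gene, while 446 carried more than 1 symbol and 2330 carried no symbol. Probes measured at all 5 harvests were averaged per gene. For all genes, a mean plus a slope over log2(1 + min/10), centred, was fitted with limma 3.58.1 under R 4.3.3 (lmFit, eBayes, two-sided, Benjamini-Hochberg, threshold 0.05), after a test on simulated data. The 5 arrays are no replicates, and p-values measure their spread around a line. The central 99% of self-self gene values served as range of no difference.

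The members, the gene lists and the rule for named genes were chosen with earlier results of these data known. Members named with values are the 7 highest and 7 lowest means, the 3 highest and 3 lowest slopes, members with more than 1 probe, the ends of the self-self values, and MRPS18A and MRPS30. MRPL2 and MRPL20-AS1 are named as the genes outside the fit or the protein-coding members. Of other lists, the highest and lowest means are named. Promoters were to be shown for the highest and lowest mean and the steepest slope, which gave MRPS18B and MRPL3. Alternatives were array centring, scaling to equal spread, keeping repeated values, subtracting or adding self-self, time as rank, no slope, single probes, a fixed limit of 1 log2 unit, and leaving out each array.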

Additional observations from a re-analysis of the deposited data

How the results depend on the processing

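The 19 negative and 6 positive calls of the mean (limma, adjusted p) ranged from 13 to 23 and from 4 to 6 when each array was left out in turn, the fewest negative calls coming without the 10 min array. The mean without a slope term gave 17 negative and 3 positive calls. With the self-self array in the fit as the baseline of the harvests, 0 MRP genes passed on the negative and 0 on the positive side, with adjusted p-values from 0.157 to 0.991 and 5 members at an unadjusted p under 0.05, in a fit that called 1 gene in all, with its spread set by 5 arrays that differ in time. The slope gave 0 calls, from 0 to 3 when each array was left out and 2 with arrays scaled to equal spread. Against a limit of 1 log2 unit in place of the self-self range, 1, 15, 9, 1 and 7 members lay outside in time order, where 25, 35, 26, 21 and 25 lay outside the range. The share of all genes past that limit was not counted. The robust SD of all genes was 0.42, 0.88, 0.76, 0.50 and 0.83 in the same order. Without that share these counts cannot be read as a feature of the members. The median of the means stayed between -0.45 (single probes in place of genes) and -0.22 (without the 10 min array) under the alternatives run. The single-probe median counts MRPL3, the lowest member, 9 times, and the next lowest median was -0.43 without the 8 h array. Over the 24 named members and all alternatives, 211 values kept direction and side of the threshold, 32 missed it, 12 newly passed it and 9 changed sign, all 9 of members near 0 whose means did not pass in either setting. With an array left out the mean of MRPL36 ran from -0.25 to 0.29, that of MRPL41 from -0.16 to 0.087 and that of MRPS2 from -0.42 to 0.16. MRPL36 was at -0.062 after scaling, and with self-self subtracted or in the fit MRPL41 was at 0.040 and MRPS2 at 0.11. MRPL9 and MRPS7 missed it in most. The cause of these changes was not tested beyond what each alternative leaves out. No paired analysis was possible because each harvest is 1 array. Levels of signal over background are unknown, and 1 probe stands for most members.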
